A study of Saccharomyces cerevisiae with 8 samples.

Results

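The 8 genes described here, COX1, COX2, COX3, COB, ATP6, ATP8, OLI1 and VAR1, are the protein genes of the mitochondrial genome of Saccharomyces cerevisiae outside its introns. They were chosen by symbol. All probe sets that the platform annotation gives to 1 of these genes alone were taken, each on its own, which gave 14 probe sets of the 9335 on the array, for 8 of the 5656 genes that it names singly. COX1 has 3 of them, COB, ATP8, OLI1 and VAR1 have 2 each, and COX2, COX3 and ATP6 have 1 each. A probe set is a group of short probes whose combined brightness is given as 1 signal.

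Total RNA from exponentially growing cells carried a biotin label and was read on 8 Affymetrix yeast arrays, 1 per sample. The tested groups were the strain labelled rnt1d at 26 C (2 arrays), the strain labelled rnt1ts at 26 C (1 array), and these strains at 37 C (1 array each). They were set against wild type at 26 C (2 arrays) and wild type at 37 C (1 array). The series title concerns snoRNA processing signals that depend on RNase III, the enzyme RNT1 encodes, and the sources used here do not spell out rnt1d or rnt1ts. The labels call the pairs at 26 C biological replicates. Further strain genotypes are not given, nor is it said which cells had complete medium with leucine, which had it without, and which had the rich medium of the design text.

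Yeast mitochondria carry a small circular-mapping genome whose messages are made by a dedicated RNA polymerase and translated on mitochondrial ribosomes. Its protein genes encode core subunits of cytochrome bc1 (complex III), cytochrome c oxidase (complex IV) and ATP synthase, and 1 protein of the mitochondrial ribosome, while all other subunits come from the nucleus. Several of the genes hold introns, some with reading frames of their own for maturases and endonucleases. Budding yeast can grow by fermentation without respiration, and cells that have lost parts or all of this genome are viable on fermentable sugars. Mitochondrial messages of this yeast lack poly(A) tails. The sources used here do not say how the RNA was primed for labelling, and mitochondrial DNA was not measured.

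Levels are the authors' MAS5 signals, normalised here between arrays by quantiles. Before that step the arrays' medians lay between 31.1 and 70.1. A probe set counted as above background on an array where it exceeded the highest of 19 controls for non-yeast transcripts there, a bound of 3.48 to 10.7. The hybridisation spikes were found on replicate 2 of rnt1d and of wild type at 26 C and not on the remaining 6 arrays. RNT1 was the check of the labels. Its signal was 1.31 and 2.03 in rnt1d at 26 C, 39.8 in rnt1ts at 26 C, and 181 and 149 in wild type at 26 C. At 37 C it went against the labels, with 71.4 on the array labelled rnt1d, 1.26 on the array labelled rnt1ts and 269 in wild type. Where its probes lie relative to any deletion is not given. Mating-type genes followed the same division in part. The summed signal of 5 a-specific genes was 1450.3 and 1309.5 in rnt1d at 26 C, 48.2 in rnt1ts at 26 C, and 4045 and 3211 in wild type at 26 C, and at 37 C it was 103 on the array labelled rnt1d, 1689.9 on the array labelled rnt1ts and 2117 in wild type. That of 4 alpha-specific genes was 4889.7 in rnt1ts at 26 C and 2101 on the array labelled rnt1d at 37 C, and from 94.0 to 137 on the other arrays. Of the 2101, MF(ALPHA)1 made up 1957, against 2988 in rnt1ts at 26 C, and STE3 was at 60.5 there and 281 in rnt1ts at 26 C. The other alpha-specific genes did not follow: MF(ALPHA)2 was at 13.4 and SAG1 at 69.7 on that 37 C array, within the range of the arrays with low sums, against 1112 and 508 in rnt1ts at 26 C. The 37 C arrays are called by their labels throughout, and none was moved to another group.

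Transcripts of the mitochondrial genes were missing at the level of detection on 3 arrays. None of the 14 probe sets was above background on either rnt1d array at 26 C or on the array labelled rnt1ts at 37 C. On rnt1ts at 26 C 9 were above background, and on wild type at 26 C 9 and 10. On the array labelled rnt1d at 37 C 12 were, and 9 on wild type at 37 C. The 12 rest on the low bound of that array, since 7 exceeded 10.7, the highest bound of the 8 arrays. Over all 9275 probe sets that are not controls, 78.8% to 90.5% were above background per array. On wild type at 37 C but not on the array labelled rnt1ts at 37 C, 9 of the 14 were above background, as were 5.78% of all tested. Probe sets above background on both wild type arrays and on neither rnt1d array at 26 C made up 0.970% of all tested, and they included 9 of the 14. In whole-culture RNA, fewer cells that carry a transcript and less of it per cell cannot be told apart.

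**Figure D1:**
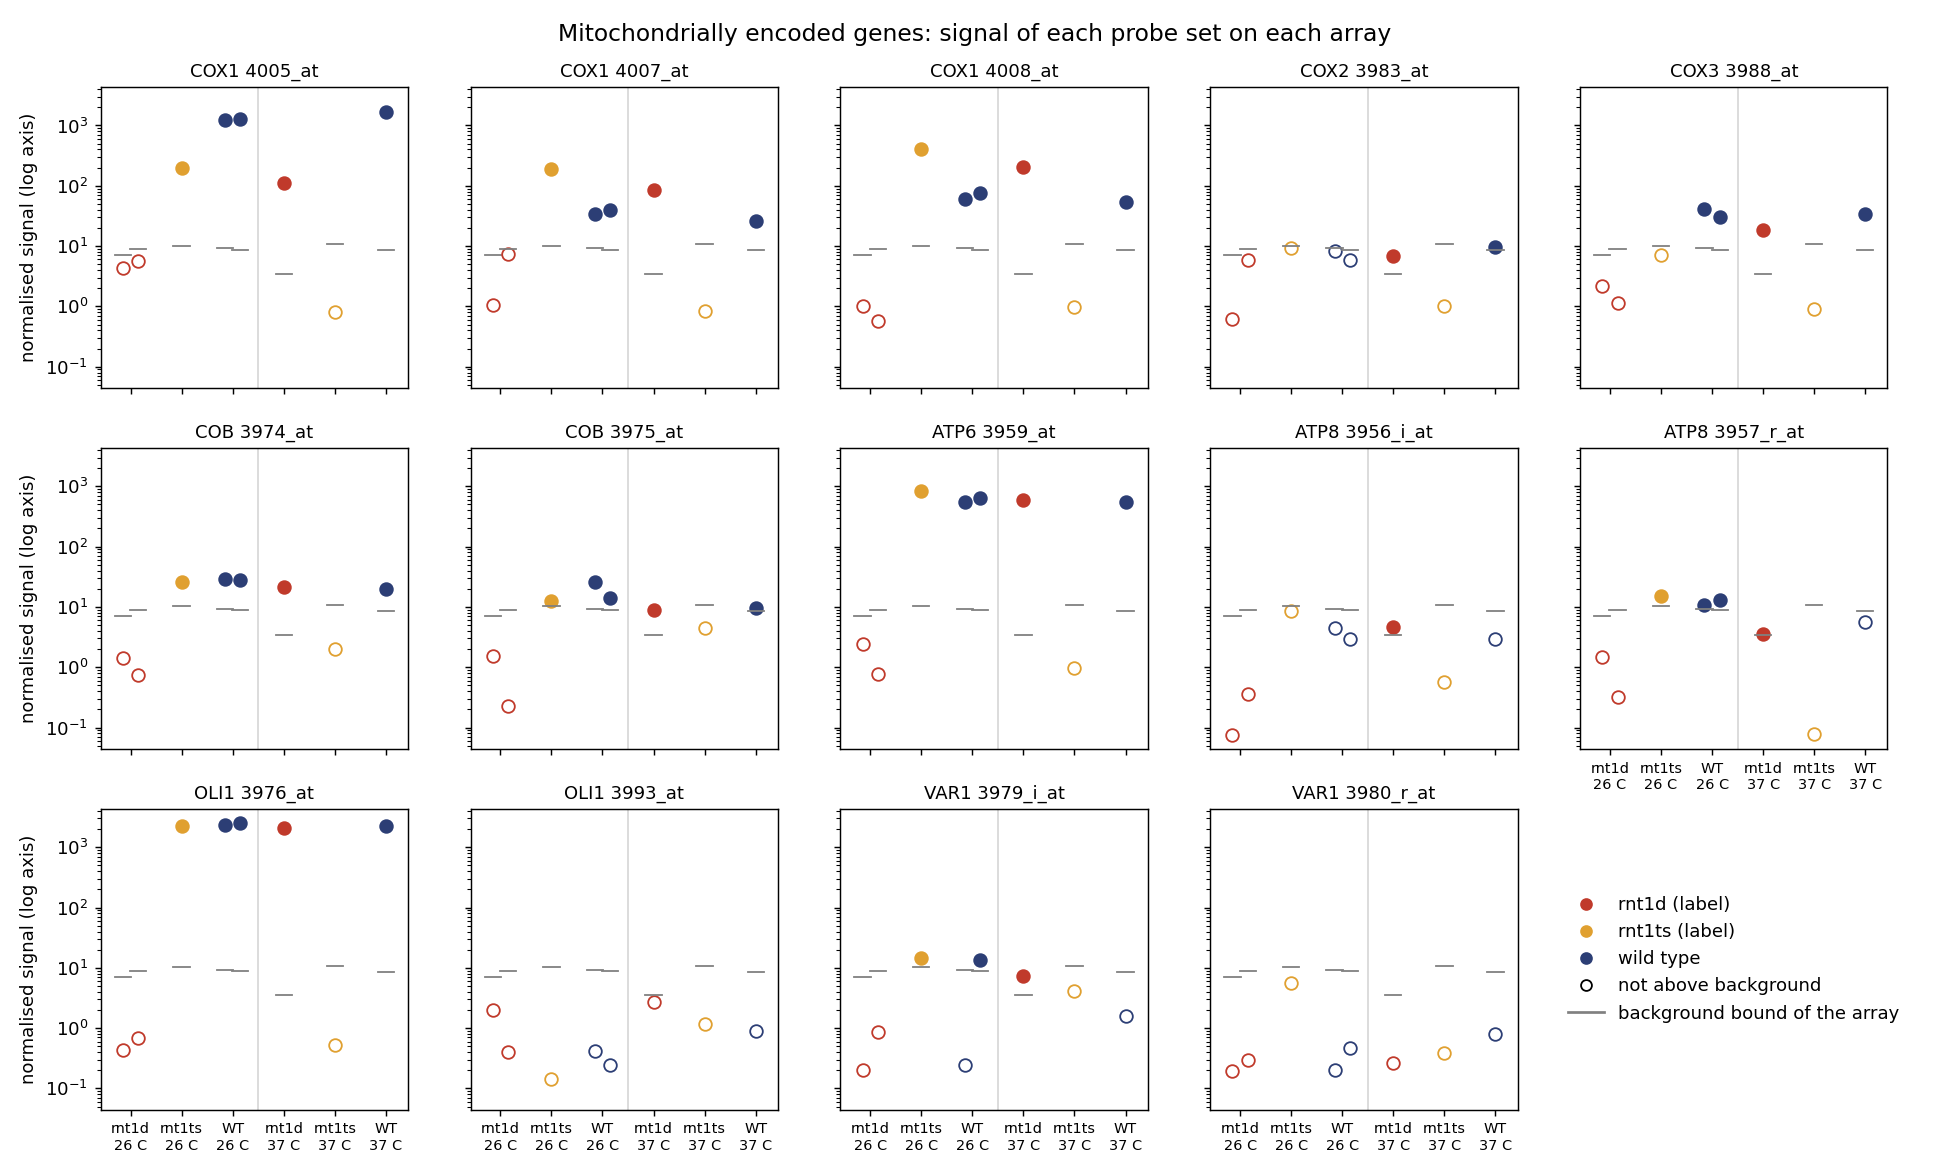
Normalised signal (log axis) of each of the 14 probe sets of the mitochondrially encoded genes on each array, by strain label at 26 C and 37 C; open circles are not above the background bound of their array, which the grey bars mark. All 14 circles are open on both rnt1d arrays at 26 C and on the array labelled rnt1ts at 37 C, while OLI1 3976_at is between 2100.1 and 2542 on the other 5 arrays.

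In rnt1d against wild type at 26 C, 9 of the 14 probe sets, from 6 of the 8 genes, fell and 0 rose (limma, adjusted p under 0.05). Over all probe sets tested, 1.95% were called lower and 3.54% higher. The median log2 change of the 14 was -1.22, against -0.03 over all probe sets.

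COX1 encodes the catalytic core subunit of cytochrome c oxidase, which holds heme and copper centres. Its probe set 4005_at had signals of 4.28 and 5.73 in rnt1d, against 1212 and 1288 in wild type at 26 C. The means were 5.0 ± 1.02 and 1249.7 ± 53.8 (SD, n = 2 each). Every rnt1d value lay far under every wild type value, and the transcript was at least 157-fold lower (limma log2 change -5.91, SE 0.16, adjusted p = 0.000151). COX1 4008_at had signals of 1.01 and 0.569 in rnt1d, against 60.0 and 76.0 in wild type, and was at least 8.47-fold lower (log2 change -2.32, SE 0.19, adjusted p = 0.00414). COX1 4007_at had signals of 1.05 and 7.50 in rnt1d, against 33.7 and 39.5 in wild type, and was at least 4.58-fold lower (log2 change -1.39, SE 0.22, adjusted p = 0.0287). The groups did not overlap in these 3 COX1 probe sets. With 2 arrays per group that alone says little, and its share over all probe sets was not counted. Each "at least" fold sets the wild type mean against the background bound of the rnt1d arrays, or the probe set's own signal where that was higher. A dim transcript can therefore show only a small bound, whatever its true change.

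COX2 and COX3 encode the other core subunits of the oxidase. COX3 had signals of 2.16 and 1.13 in rnt1d, against 40.4 and 30.6 in wild type at 26 C. It was at least 4.42-fold lower (limma log2 change -1.54, SE 0.16, adjusted p = 0.00964). COX2, which carries the copper centre that receives electrons from cytochrome c, had signals of 0.620 and 5.95 in rnt1d and 8.31 and 5.92 in wild type. Its groups overlapped, neither was above background, and it was not called (adjusted p = 0.386), so its probe set had little range in which to show a fall.

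COB encodes cytochrome b, the subunit of complex III that binds heme and ubiquinone. COB 3974_at had signals of 1.42 and 0.736 in rnt1d, against 28.7 and 27.8 in wild type at 26 C. COB 3975_at had signals of 1.52 and 0.232 in rnt1d, against 25.6 and 14.3 in wild type. The 2 probe sets were at least 3.54-fold and at least 2.40-fold lower in rnt1d (limma adjusted p = 0.00855 and 0.0357).

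The ATP synthase genes included the brightest probe set of the 14 in wild type. OLI1 encodes subunit c of the membrane ring that turns with proton flow, and its probe set 3976_at had signals of 0.433 and 0.676 in rnt1d, against 2353 and 2542 in wild type at 26 C. The means were 0.555 ± 0.172 and 2448 ± 133 (SD, n = 2 each), at least 307-fold lower (limma log2 change -7.22, SE 0.14, adjusted p = 7.51e-05). ATP6 encodes subunit a, which forms the proton path beside that ring. It had signals of 2.39 and 0.762 in rnt1d, against 541 and 647 in wild type, at least 74.2-fold lower (log2 change -5.11, SE 0.17, adjusted p = 0.000151). ATP8 encodes a small membrane subunit, and its gene lies between COX1 and ATP6 in the RefSeq gene table. ATP8 3957_r_at had signals of 1.5 and 0.327 in rnt1d, against 10.6 and 13.1 in wild type, and was at least 1.48-fold lower (log2 change -0.72, SE 0.12, adjusted p = 0.0329).

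The other probe sets of these genes were dim everywhere. ATP8 3956_i_at had signals of 0.0746 and 0.364 in rnt1d and 4.47 and 2.94 in wild type at 26 C. It was below background on all 4 arrays and was not called (limma adjusted p = 0.179). OLI1 3993_at, the second probe set of that gene, had 2.00 and 0.396 in rnt1d and 0.410 and 0.245 in wild type, and was not above background on any of the 8 arrays. It gave no reading of the OLI1 message, and its annotation to OLI1 could not be checked because the probe sequences were not used here. VAR1 encodes the ribosomal protein made inside mitochondria. Its probe set 3979_i_at had 0.205 and 0.861 in rnt1d and 0.243 and 13.7 in wild type, and 3980_r_at had 0.197 and 0.301 in rnt1d and 0.203 and 0.469 in wild type. Neither VAR1 probe set was called (adjusted p = 0.433 and 0.971), and only 1 of their 4 wild type values was above background. The suffixes _i_at and _r_at mark probe sets with fewer probes or relaxed probe choice, which applies to all ATP8 and VAR1 probe sets here.

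The falls of OLI1 3976_at, COX1 4005_at and ATP6, the 3 brightest in wild type, were called whichever of the 4 arrays of these groups was left out and in all 13 alternatives that tested them. Without 1 array, 3 to 5 of the 9 calls held at the threshold. COX3, COX1 4007_at, COB 3975_at and ATP8 3957_r_at lost theirs whichever array was left out, so no probe set of COX3 or ATP8 kept one. The alternatives include a replicate block and a batch term that mark the same arrays. COX1 4007_at, COX1 4008_at and ATP8 3957_r_at were not called on the deposited scale (limma adjusted p = 0.491, 0.0790 and 0.199). Within the arrays that had the hybridisation spikes (replicate 2) the log2 difference of OLI1 3976_at was -7.26, and within those that did not (replicate 1) it was -7.17. All 9 called probe sets were negative within both, from -7.17 to -0.60 for replicate 1 and from -7.26 to -0.83 for replicate 2.

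In rnt1ts against wild type at 26 C, 1 of the 14 probe sets fell and 2 rose, against 0.205% and 0.582% of all probe sets (limma, adjusted p under 0.05). All 3 belong to COX1, and they moved in opposite directions. COX1 4005_at was at 196 in rnt1ts, against 1212 and 1288 in wild type (log2 change -2.58, SE 0.19, adjusted p = 0.00622). COX1 4007_at was at 191 in rnt1ts, against 33.7 and 39.5 in wild type (log2 change 1.98, SE 0.27, adjusted p = 0.0485). COX1 4008_at was at 409 in rnt1ts, against 60.0 and 76.0 in wild type (log2 change 2.35, SE 0.23, adjusted p = 0.0170). The rnt1ts value lay outside the wild type values in each case. With 1 array against 2 that alone says little, and its share over all probe sets was not counted. Which part of COX1 each probe set reads is not given in the files used here.

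**Figure D2:**
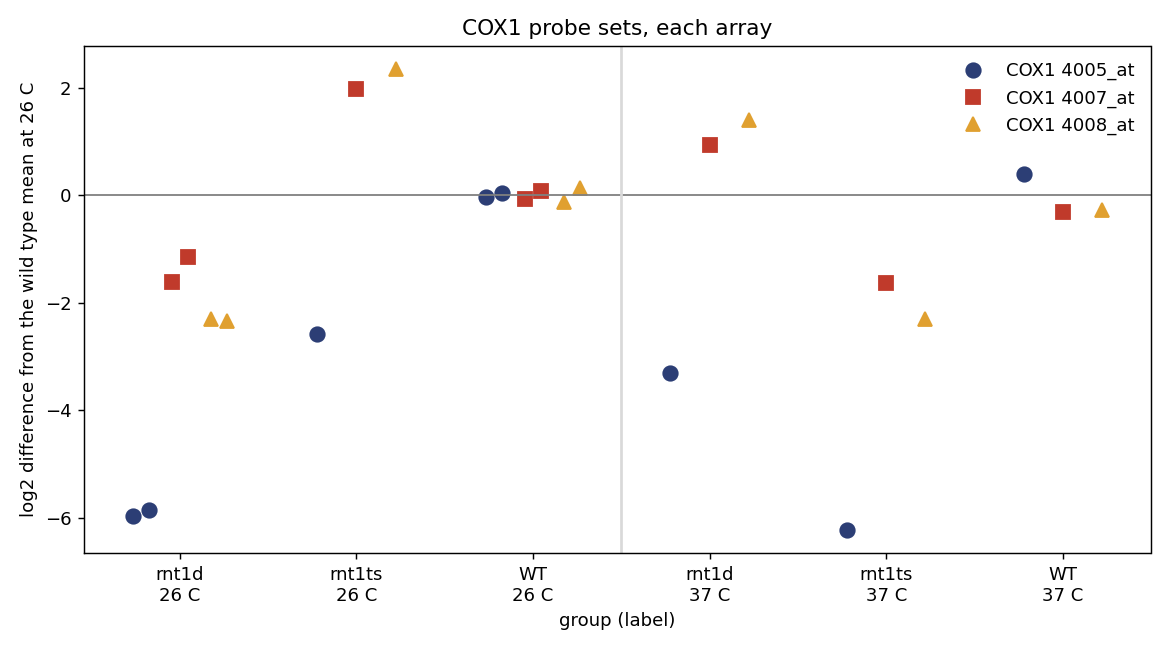
Log2 difference of each array from the wild type mean at 26 C for the 3 COX1 probe sets, by strain label and temperature, with 1 point per array. All 3 probe sets are low in rnt1d at 26 C and on the array labelled rnt1ts at 37 C. On rnt1ts at 26 C, and likewise on the 37 C array labelled rnt1d, 4005_at is low while 4007_at and 4008_at are high.

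None of the other 11 probe sets of these genes was called in rnt1ts at 26 C. OLI1 3976_at was at 2224 in rnt1ts, against 2353 and 2542 in wild type, a log2 change of -0.14 (95% interval -0.57 to 0.30, limma adjusted p = 0.942). ATP6 was at 822 in rnt1ts, against 541 and 647 in wild type (log2 change 0.46, interval -0.06 to 0.99, adjusted p = 0.638). COB 3974_at was at 26.0 in rnt1ts, against 28.7 and 27.8 in wild type (log2 change -0.08, adjusted p = 0.973). COX3 was at 7.0 in rnt1ts, not above background, against 40.4 and 30.6 in wild type, at least 3.46-fold lower but not called (log2 change -1.16, SE 0.20, adjusted p = 0.102). The rnt1ts strain is represented by 1 array, and none of the 3 COX1 calls held whichever array was left out, with adjusted p up to 0.151 for 4005_at, 0.349 for 4007_at and 0.187 for 4008_at. The mating-type genes above separate the same rnt1ts array from wild type, and the part of other strain differences in these values was not tested.

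In rnt1d against rnt1ts at 26 C, 6 of the 14 probe sets were lower and 0 higher, against 0.765% and 0.809% of all probe sets (limma, adjusted p under 0.05). This comparison shares its rnt1d arrays with the first. OLI1 3976_at was at least 279-fold lower in rnt1d (adjusted p = 0.000269), and ATP6 at least 103-fold (adjusted p = 0.000785). COX1 4008_at was at least 51.3-fold lower (adjusted p = 0.00166), COX1 4005_at at least 24.6-fold (adjusted p = 0.00306) and COX1 4007_at at least 23.9-fold (adjusted p = 0.00764). COB 3974_at was at least 3.26-fold lower (adjusted p = 0.0322). OLI1 3976_at, ATP6 and COX1 4008_at kept this call whichever of the 4 rnt1d and wild type arrays at 26 C was left out. The 1 rnt1ts array, on which the comparison rests, could not be left out. COX3, at 2.16 and 1.13 in rnt1d and 7.0 in rnt1ts, was above background in neither strain and was not called (adjusted p = 0.402).

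At 37 C there is 1 array per strain, so differences carry no replicate check and no test. On the array labelled rnt1ts, 7 of the 14 probe sets were lower by 2-fold or more, relative to wild type, and 0 higher by as much, against 3.32% and 3.59% of all probe sets. OLI1 3976_at was at 0.523 on that array and at 2254 in wild type, at least 211-fold lower. COX1 4005_at was at 0.815 there and at 1654 in wild type, at least 155-fold lower, and ATP6 was at 0.975 there and at 559.5 in wild type, at least 52.3-fold lower. COX3 was at 0.897 there and at 33.9 in wild type, and COB 3974_at at 2.00 there and 20.2 in wild type. None of the 14 was above background there or on the rnt1d arrays at 26 C, so their levels on these 3 arrays have no order.

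On the array labelled rnt1d at 37 C, 1 of the 14 probe sets was lower by 2-fold or more, relative to wild type at 37 C, and 2 higher by as much, against 3.30% and 2.58% of all probe sets. These were again the COX1 probe sets. COX1 4005_at was at 112 on that array and at 1654 in wild type (log2 difference -3.71). COX1 4007_at was at 84.2 there and 26.4 in wild type (log2 difference 1.24), and COX1 4008_at at 203 there and 53.1 in wild type (log2 difference 1.67). OLI1 3976_at was at 2100.1 there and 2254 in wild type, and ATP6 at 595 there and 559.5 in wild type, with log2 differences of -0.10 and 0.09. COX3 was at 18.5 there and 33.9 in wild type (log2 difference -0.53). Set beside rnt1ts at 26 C, the array labelled rnt1d at 37 C differed by -0.08 for OLI1 3976_at, by -0.46 for ATP6, by -1.05 to -0.73 for the COX1 probe sets and by 0.59 for COX3.

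**Figure D3:**
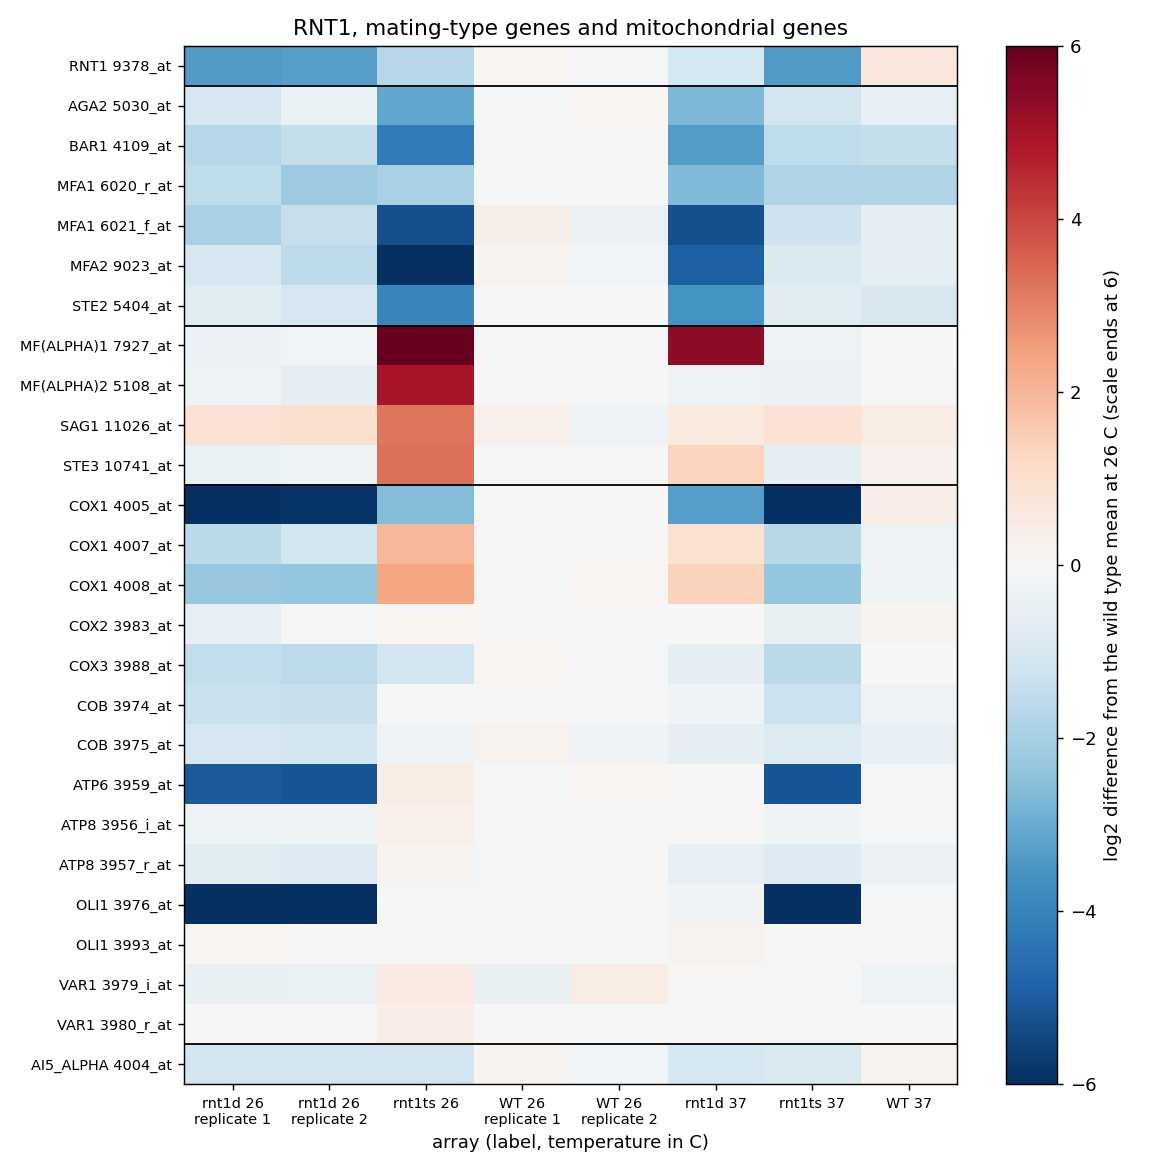
Log2 difference of each array from the wild type mean at 26 C (colour, blue lower and red higher, scale ending at 6) for RNT1, a-specific genes, alpha-specific genes, the 14 probe sets of the mitochondrially encoded genes and the intron frame AI5_ALPHA. The array labelled rnt1ts at 37 C has the low RNT1, OLI1, COX1 and ATP6 signals of rnt1d at 26 C, and the array labelled rnt1d at 37 C has the high MF(ALPHA)1 and low MFA2 of rnt1ts at 26 C, although its MF(ALPHA)2 and SAG1 are within the range of the arrays with low MF(ALPHA)1.

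Wild type showed no called difference between temperatures. In wild type at 37 C against 26 C, 0 of the 14 probe sets and 0% of all 9275 were called in either direction (limma, adjusted p under 0.05), and 0 of the 14 had an unadjusted p under 0.05, while 894 of all probe sets had one. Their log2 changes ran from -0.47 for COB 3975_at to 0.40 for COX1 4005_at. OLI1 3976_at was at 2254 at 37 C, against 2353 and 2542 at 26 C (log2 change -0.12, 95% interval -0.55 to 0.32), and ATP6 at 559.5, against 541 and 647 (log2 change -0.08, interval -0.60 to 0.44). With 1 array at 37 C, these intervals allow changes of either sign.

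The difference between temperatures in the effect of each strain label was tested with interaction terms. For rnt1d, the effect at 37 C minus that at 26 C was called higher in 3 of the 14 probe sets and lower in 0, against 0.0647% and 0% of all probe sets. They were OLI1 3976_at, ATP6 and COX1 4008_at. For rnt1ts, it was called lower in 4 of the 14 and higher in 0, against 0.194% and 0.0539% of all probe sets, in OLI1 3976_at, ATP6, COX1 4005_at and COX1 4008_at (limma, adjusted p under 0.05). These terms set the 37 C arrays, whose RNT1 goes against their labels, beside the 26 C arrays, so a temperature effect and the content of those arrays cannot be told apart. None of the 7 calls held whichever rnt1d or wild type array at 26 C was left out.

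The rest of the mitochondrial genome gave 20 more probe sets, of which 14 name 1 gene and 6 list several. The 14 are for reading frames in COX1 introns (AI1 to AI5_BETA), in COB introns (BI2 to BI4), for SCEI, the endonuclease of the 21S rRNA intron, and for Q0255. In rnt1d against wild type at 26 C, 3 of these 14 fell and 0 rose, against 1.95% and 3.54% of all probe sets, with a median log2 change of -0.40. AI5_ALPHA, an endonuclease frame, was at 0.287 and 0.482 in rnt1d, against 24.2 and 15.9 in wild type, at least 2.46-fold lower (limma adjusted p = 0.0193). Q0255 3985_i_at was at least 1.40-fold lower (adjusted p = 0.0286). AI3, above background on 1 of 2 wild type arrays, had a log2 change of -0.64 (adjusted p = 0.0418). AI1 had signals of 1.46 and 1.99 in rnt1d and 13.4 and 81.2 in wild type, and with that spread was not called (adjusted p = 0.145).

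All 6 probe sets that list several mitochondrial frames were called lower in rnt1d against wild type at 26 C, against 1.95% of all probe sets. Their log2 changes were -4.63 to -1.51. The brightest, 4001_at, which lists COX1 with AI4 and AI5_ALPHA, had signals of 0.504 and 1.28 in rnt1d, against 497 and 324 in wild type, at least 50.3-fold lower (limma adjusted p = 0.000777). It is not counted among the 14 because it names more than 1 gene. None of these 20 probe sets was above background on rnt1d at 26 C or on the array labelled rnt1ts at 37 C. Their lower calls did not all hold when 1 array was left out. In rnt1ts at 26 C AI5_ALPHA was at 0.121, against 24.2 and 15.9 in wild type, and was not called (limma log2 change -1.15, adjusted p = 0.0877). At 37 C its signal on the array labelled rnt1d was 0.993, against 26.1 in wild type.

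Nuclear genes that work with the mitochondrial ones were counted in 10 lists, 177 genes measured of 178, 1 probe set per gene. In rnt1d against wild type at 26 C, 12 of the 177 fell and 7 rose, which is 6.78% and 3.95%, against 1.95% and 3.54% of all probe sets. These calls depended on the processing: on the deposited scale 0 fell and 0 rose, and the same held without wild type replicate 1 or without wild type replicate 2. Without rnt1d replicate 1 there were 4 falls and 4 rises, and without rnt1d replicate 2 there were 3 falls and 0 rises. The lists of nuclear genes for ATP synthase, complex III and cytochrome c oxidase held all of the falls. Of 16 nuclear ATP synthase genes, 7 fell and 0 rose, with a median log2 change of -0.82. ATP3, the gamma subunit of the central stalk, averaged 343 ± 48.4 in rnt1d and 865 ± 62.0 in wild type (SD, n = 2 each; log2 change -1.30, limma adjusted p = 0.0161). ATP16, the delta subunit of that stalk, and ATP2, the catalytic beta subunit, had log2 changes of -1.35 and -1.01 (adjusted p = 0.0181 and 0.0284). ATP1, the alpha subunit, averaged 396 ± 42.7 in rnt1d and 767 ± 46.2 in wild type (SD, n = 2 each; adjusted p = 0.0330).

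Of 9 nuclear subunits of complex III, 4 fell and 0 rose, against 1.95% and 3.54% of all probe sets, with a median of -0.67. The core proteins COR1 and QCR2 had log2 changes of -1.17 and -0.85, and the small subunits QCR10 and QCR6 of -0.87 and -0.77 (limma adjusted p = 0.0287, 0.0329, 0.0389 and 0.0414). Of 9 nuclear subunits of cytochrome c oxidase, 1 fell. It was COX4, at 167 and 153 in rnt1d, against 588 and 664 in wild type (log2 change -1.86, SE 0.15, adjusted p = 0.00417), and the list's median was -0.36. The falls of these subunits were smaller than those of OLI1, COX1 4005_at, ATP6 and COX1 4008_at (log2 change -2.32). COX4 had a larger log2 change than the other called mitochondrially encoded probe sets. These were COX3 (-1.54), COX1 4007_at (-1.39), COB 3974_at and 3975_at (-1.37 and -1.07) and ATP8 3957_r_at (-0.72). They were dim, and the scale tested understates changes at low signal, so the order of the true falls is open. Transcripts of the nuclear subunits stayed well above background.

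The 7 genes that rose were in other lists, and their share was near that of all probe sets. Of 23 assembly factors of the respiratory complexes, 3 rose and 0 fell, with a median of 0.17. OXA1, the insertase that places mitochondrially made proteins in the inner membrane, averaged 1092 ± 27.7 in rnt1d and 436 ± 32.6 in wild type at 26 C (SD, n = 2 each; log2 change 1.30, limma adjusted p = 0.0112). COX15, which makes heme A for COX1, and PET117, another oxidase assembly factor, had log2 changes of 1.63 and 1.27 (adjusted p = 0.0121 and 0.0319). Among 6 targets of the retrograde response, the signalling from mitochondria to nucleus described when respiration fails, IDH1 and IDH2, the subunits of NAD-dependent isocitrate dehydrogenase, rose (log2 changes 1.49 and 1.34, adjusted p = 0.0152 and 0.0230). CIT2, the usual reporter of that response, was not called (log2 change 0.52, adjusted p = 0.295). Of 68 mitochondrial ribosomal protein genes, RSM18 and MRPS16 rose (log2 changes 1.12 and 0.76, adjusted p = 0.0197 and 0.0402), which is 2.94% of the list, below the 3.54% of all probe sets, and the median was 0.15.

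None was called among 13 genes of mitochondrial transcription and RNA decay, 16 translational activators, 8 splicing factors and 10 genes of mitochondrial DNA maintenance, with medians of 0.08, -0.02, -0.17 and -0.34. At an unadjusted limma p under 0.05 these lists held 3, 2, 0 and 3 genes, in the same order, where 23.3% of all probe sets had such a p. In the first of these PET127, needed for processing and decay of mitochondrial RNA ends, had a log2 change of -0.83, NCA3, a factor for the message that holds ATP8 and ATP6, of 0.72, and SUV3, the helicase of the RNA-degrading complex, of 0.52 (limma adjusted p = 0.0797, 0.202 and 0.168). The activators with the smallest p were AEP2, which acts on OLI1 messages, ATP25, which stabilises them, and PET122, which acts on COX3 messages (log2 changes -0.72, -0.57 and 0.54). Among splicing factors these were the helicase MSS116 (-0.34), CCM1 (-0.23) and CBP2 (-0.23). MGM101 and MHR1, recombination proteins of mitochondrial DNA, and MSH1, its mismatch repair protein, had log2 changes of -0.78, 0.45 and -0.51.

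**Figure D4:**
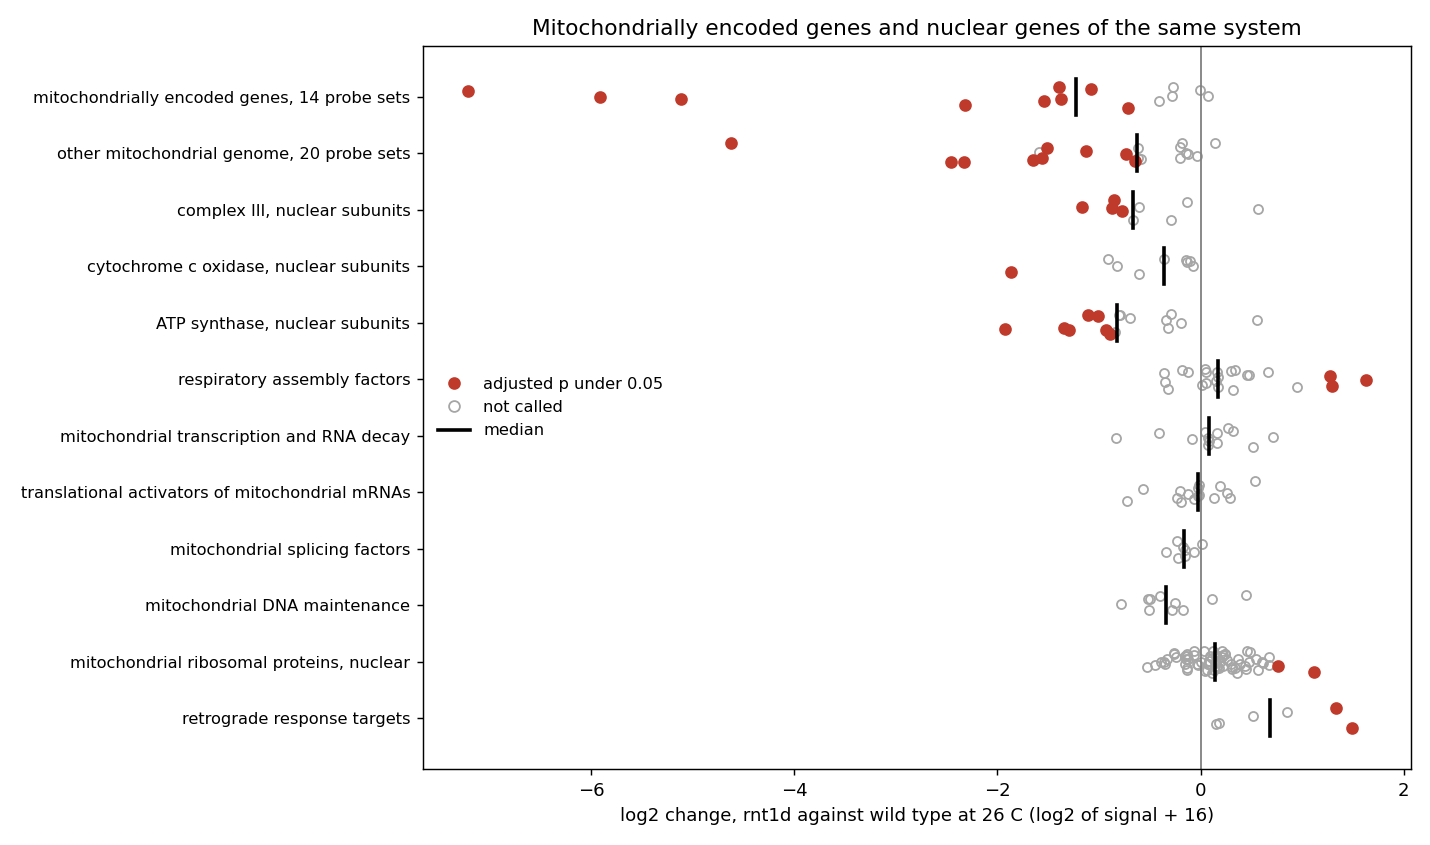
Log2 change in rnt1d against wild type at 26 C of each probe set of the mitochondrially encoded genes, each other mitochondrial probe set and each gene of 10 nuclear lists; filled points were called (limma, adjusted p under 0.05) and black bars are medians. The mitochondrially encoded genes reach -7.22 with a median of -1.22, and the nuclear lists run from -1.92 to 1.63.

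In rnt1ts against wild type at 26 C, 0 of these 177 nuclear genes were called by limma and 11 (6.21%) had an unadjusted p under 0.05, against 8.96% of all probe sets. The medians were 0.37 for complex III, 0.26 for cytochrome c oxidase and 0.38 for ATP synthase subunits. On the array labelled rnt1ts at 37 C the medians of the log2 differences from wild type at 37 C were -0.21, -0.30 and -0.35 for these 3 lists, 0.45 for mitochondrial ribosomal proteins and 0.79 for retrograde targets. On the array labelled rnt1d at 37 C they were 0.79, 0.66 and 0.56 for the 3 lists. They were -0.31 for mitochondrial ribosomal proteins and 0.17 for retrograde targets there, with 1 array each. In wild type, the 3 lists had median log2 changes of -0.37, -0.35 and -0.38 at 37 C against 26 C. The differences at 37 C also rest on that 1 wild type array. Relative to it, the medians over all probe sets were 0.003 on the array labelled rnt1ts and -0.005 on the array labelled rnt1d. On the latter 0, 0 and 1 genes of the 3 lists were at least 2-fold higher, against 2.58% of all probe sets, and 0 lower. On the former 0, 1 and 2 were as much lower, against 3.32%, and 1, 0 and 0 higher.

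The genes with the most similar pattern were looked for among 6188 nuclear probe sets. The pattern was the mean log2 signal of the 9 probe sets above background on both wild type arrays at 26 C. It was 4.11 to 4.15 on the 3 arrays without detected mitochondrial transcripts and 6.78 to 7.19 on the other 5, so a likeness over the 8 arrays is mostly a likeness in that split. The highest Pearson correlation was that of MIS1, a mitochondrial folate enzyme, at 0.99, against a median of 0.06 and a 99th percentile of 0.94 over all candidates. MIS1 had signals of 64 and 44.6 in rnt1d at 26 C, 267 in rnt1ts at 26 C, and 283 and 275 in wild type at 26 C. At 37 C it was at 250.2 on the array labelled rnt1d, 59.2 on the array labelled rnt1ts and 273 in wild type. The next were PXL1, SNR11, RNH203, MET17, SGV1 and MCM2 at 0.98, and PMT1, RPL22B and MCM7 at 0.97. MET17, an enzyme of sulfur assimilation, was at 392 and 317 in rnt1d at 26 C, against 1914 and 2014 in wild type, and SNR11, a snoRNA, at 22 and 25.7, against 56.8 and 64. On the deposited scale 2 of these 10 genes were among the 10 highest.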

How the data were processed

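The deposited table holds MAS5 intensity values on a linear scale, 1 for each probe set and array; MAS5 is named in the submitters' processing notes. The sources used here give neither its version nor a scaling target. Deposited medians differed between arrays, so all 9335 probe sets, the 60 controls included, were quantile-normalised between arrays (limma 3.58.1 in R 4.3.3). Values were tested as log2(signal + 16), which understates changes at low signal. After removal of controls, 9275 probe sets were fitted in limma with 1 mean for each of 6 groups (8 arrays) and a variance trend on mean signal. Tests were two-sided, with Benjamini-Hochberg adjustment over all 9275 and a threshold of 0.05. The fit has 2 residual degrees of freedom, from the rnt1d and wild type pairs at 26 C, so groups of 1 array borrow their spread. The labels do not say whether replicates came from separate cultures, so p-values measure only the spread between these arrays. Precision is limited by the number of arrays.

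A group not above background has only a bound, the brighter group's mean against the higher of the array's bound and the probe set's own signal, as means of log2 values. The members, the gene lists and the tests were chosen with earlier results of these data known. Named genes are RNT1, every member probe set, up to 4 called genes per nuclear list or 3 by smallest p where none was called, the 10 most similar patterns and called mitochondrial probe sets. CIT2 was named outside this rule, with its values seen, as were AI1 and the mating-type checks. Where a gene of a nuclear list has several probe sets, the one with the highest mean stands for it. Each of 6504 probe sets names 1 gene, and all matched a RefSeq gene table; 328 name several and 2443 none. The fit was tested on simulated data, with changes placed only in probe sets brighter than most members, so it does not cover the dim members. The alternatives were the deposited scale, median scaling, normalisation without controls, pseudocounts of 1 and 64, a filter on dim probe sets, no variance trend, a replicate block and leaving out each replicate. A batch term, for the arrays with hybridisation spikes, and a common background bound were chosen after seeing the data. The spiked arrays are also those that the replicate block marks, so the batch term and the block are not separate checks.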

Additional observations from a re-analysis of the deposited data

Results flagged for a closer look

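The effect of a strain label differed between temperatures, by a test of the difference itself, for 7 values of the mitochondrial genes. For rnt1d, the log2 effect at 37 C minus that at 26 C was 7.12 for OLI1 3976_at (SE 0.25, limma adjusted p = 0.00191), 5.2 for ATP6 (SE 0.30, adjusted p = 0.0104) and 3.98 for COX1 4008_at (SE 0.33, adjusted p = 0.0381). For rnt1ts it was -6.97 for OLI1 3976_at (SE 0.27, adjusted p = 0.00334) and -5.55 for ATP6 (SE 0.32, adjusted p = 0.00704). For the COX1 probe sets 4008_at and 4005_at it was -4.37 (SE 0.35, adjusted p = 0.0150) and -4.06 (SE 0.29, adjusted p = 0.0135). RNT1 signals differed in the same directions, at 71.4 under the label rnt1d and 1.26 under the label rnt1ts at 37 C. At 26 C they were 1.31 and 2.03 in rnt1d and 39.8 in rnt1ts. The same terms for RNT1 were 1.65 for rnt1d and -2.35 for rnt1ts, and neither was called. The part of RNT1 in the 7 values was not tested. None of the 7 calls held in every fit that left out an rnt1d or wild type array at 26 C. With 1 array per strain at 37 C, the temperature effect and the content of those arrays cannot be told apart.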

How the results depend on the processing

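The counts of called members changed when single arrays were left out, in every comparison with calls. Leaving out a replicate also lowers the 2 residual degrees of freedom of the fit. A lost call therefore does not by itself show that the estimate changed. Wild type arrays enter rnt1d against rnt1ts only through the spread. In rnt1d against wild type at 26 C the 9 lower calls became 3 to 5 when an array was left out (3 without either wild type array, 5 or 4 without replicate 1 or 2 of rnt1d), while every scaling, pseudocount, filter and trend alternative kept the count within 1.5 times. For rnt1ts against wild type the 1 lower call was 0 on the deposited scale and 2 with the batch term, and the 2 higher calls were 1 with median scaling and 0 with a pseudocount of 1; without an array they were 0 to 1 and 0. The 6 lower calls of rnt1d against rnt1ts were 3 without either wild type replicate. For the rnt1d interaction the 3 higher calls were 5 with the filter and 5 with the batch term, and 0 to 1 without an array; for the rnt1ts interaction the 4 lower calls were 0 without either wild type replicate. VAR1 3979_i_at and 3980_r_at, neither called, changed sign: leaving out 1 array gave log2 changes of -0.85 to 0.025 and of -0.019 to 0.0040, the positive ones without wild type replicate 2. The cause was not tested in any of these cases, other than fewer arrays.

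The nuclear lists, with 12 lower and 7 higher calls, had 0 and 0 on the deposited scale, 4 higher with median scaling, 19 lower with the filter, 24 lower and 15 higher with the batch term, and 0 to 4 of each without an array. The 9 lower calls among the other 20 mitochondrial probe sets became 2 to 5 without an array. Without controls in the normalisation 1 member was above background on rnt1d replicate 2 at 26 C, and with the common bound 7 were on the array labelled rnt1d at 37 C. At 37 C, 3 members were at least 2-fold lower on the array labelled rnt1ts with a pseudocount of 64, 1 was higher there with a pseudocount of 1, and 1 was higher on the array labelled rnt1d with a pseudocount of 64. Only 2 of the 10 most similar genes were shared on the deposited scale.

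Replicate numbers are shared by rnt1d and wild type at 26 C, but no label says that a number pairs them. Deviations of same-numbered arrays from their group means correlated at 0.36 over 6930 probe sets. With the replicate block 9 members were called lower, 13 of the other mitochondrial probe sets, and 24 lower and 15 higher of the nuclear list genes. Over all probe sets the 328 higher and 181 lower calls became 791 and 648 with the block and 784 and 641 with the batch term. Both terms mark the same arrays, so they are not separate checks. The calls were 216 and 324 with median scaling, 69 and 31 on the deposited scale, and 525 and 335 with the filter. Without an array they were 23 to 149 higher and 10 to 92 lower. Over all probe sets the log2 changes had a median of 0.12 on the deposited scale and of -0.03 after normalisation. Signal over background limits the dim probe sets of COX2, ATP8, VAR1 and OLI1 3993_at, for which a fall could hardly be seen.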
